A study of Homo sapiens with 2 samples.

Results

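The genes described here are 40 genes of glycolysis and of the response to low oxygen, out of 18930 genes in the deposited table. They were chosen by symbol and fall into 17 glycolytic enzymes, 4 transporters of glucose and lactate, 4 regulators of glycolysis and 15 hypoxia genes outside glycolysis. Glycolysis splits glucose into pyruvate through a chain of cytosolic enzymes, and lactate dehydrogenase then turns pyruvate into lactate. When oxygen is scarce, the alpha subunits of the hypoxia-inducible factors (HIF) escape the prolyl hydroxylases that mark them for destruction, pair with a beta subunit and bind short DNA elements next to glycolytic, angiogenic and other genes. Melanoma cells, like many tumor cells, are known to use glycolysis also when oxygen is present.

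The study describes RNA sequencing of A375, a human melanoma cell line. It compares cells made resistant to dacarbazine (DTIC), a drug that alkylates DNA, with wild-type cells. There were 2 libraries of total RNA, 1 labelled DR (drug resistant) and 1 labelled WT (wild type), and both were labelled as A375 melanoma cells from skin, grown in DMEM with serum. The treatment label gives 105 days of the drug, spelled DITC, for both samples, the one labelled WT included. The resistant cells were described in the study's methods as survivors of rising drug concentrations. No replicate library was analysed here, so no difference below has a replicate check, no p-value is given, and every difference is one between 2 libraries and not between 2 conditions.

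The count columns were tied to the samples by the description labels alone. The column names differ by 1 punctuation mark only and are both close to the title that the DR sample carries. All directions given below depend on this assignment, and the libraries are called the DR-labelled and the WT-labelled library. The DR-labelled library held 54878348 reads and the WT-labelled library 35294662. A count of 0 allows up to 3 reads, which is 0.0540 counts per 1000000 reads (CPM) in the first and 0.0861 CPM in the second. The labelled cell type was checked against its markers. Of 8 melanocytic markers, MITF had 1922 and 1211 reads (34.6 and 34.7 CPM), PMEL 248 and 82, MLANA 123 and 89, DCT 13 and 9, TYRP1 0 and 17 and SOX10 3 and 0, while TYR and S100B had no count. By CPM, MITF alone stood above the median of all genes tested. Per base of gene length, scaled to 1000000 over all genes, MITF stood at 8.13 and 8.27, below the medians of 14.4 and 14.5. The list together took 0.00420% of the reads of the DR-labelled and 0.00399% of those of the WT-labelled library. All 9 plasma cell markers were measured, at a median of 403 and 283 CPM against 20.0 and 19.6 CPM for all genes tested, and took 0.477% and 0.575% of the reads. JCHAIN, the joining chain of secreted antibodies, had 111812 and 101680 reads. Of the fibroblast markers 1 of 6 and of the keratinocyte markers 3 of 5 reached 10 reads. The plasma cell list thus had the highest median level of the marker lists in both libraries. The melanocytic list, with a median of 2.21 and 2.35 CPM over its genes tested, did not bear out the label of melanoma cells. The part of the cell type in the differences below was not tested. In bulk RNA, fewer cells of a type and less RNA per cell cannot be told apart.

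The short HIF binding core was looked up in promoters, since it is the sequence that HIF binds next to genes it induces. RefSeq windows (GRCh38.p14) of 300 bases, from 250 before to 50 after a transcription start, were held for 35 of the 40 genes, as 63 windows. The cores searched were ACGTG and GCGTG on both strands, and CACGTG counts as a match of ACGTG on each strand. At least 1 core lay in 43 of the 63 windows (68.3%), against 48.4% of all 35116 windows of this length. The share was 62.2% of 37 windows for the glycolytic enzymes and 78.6% of 14 windows for the hypoxia genes outside glycolysis. ACGTG lay in 40.5% of the enzymes' windows, 35.7% of those of the hypoxia genes and 21.4% of all windows. GCGTG lay in 37.8% of the enzymes' windows, 50% of those of the hypoxia genes and 36.5% of all windows. A gene can have several windows, some of them overlapping, and by gene the order of the lists differed. At least 1 core lay in any window of 94.1% of 17 enzymes, 83.3% of 12 hypoxia genes and 52.4% of all 27305 genes. More windows give a gene more places for a match, and the lists differ in this. The 17 enzymes had 37 windows, the 12 hypoxia genes 14 and all 27305 genes 35116. The shares by gene are therefore not like for like between the lists. By gene, ACGTG gave 64.7%, 41.7% and 24.9%, and GCGTG 64.7%, 50% and 40.6%. A match is a description of the letters and not a binding site.

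The 250 bases before the start are shown for the 4 genes that differed by 2-fold between the libraries and had a single window with a core in it, and for LDHA, whose window held more ACGTG matches than that of any other of the 40 genes. The cores are in capitals, all windows are on the forward strand, and positions are counted back from the start. ENO2, a neuronal enolase, lies at chr12:6914330-6914579 with ACGTG beginning 118 bases before the start. LDHA, the muscle-type subunit of lactate dehydrogenase, lies at chr11:18394313-18394562 with 5 matches. EPAS1, the gene of HIF-2alpha, lies at chr2:46297157-46297406 with GCGTG beginning 117 bases before the start. ADM, the gene of the vasodilator peptide adrenomedullin, lies at chr11:10304823-10305072 with GCGTG beginning 101 bases before the start. ANKRD37, an ankyrin repeat gene known as a HIF target, lies at chr4:185396591-185396840 with 3 matches beginning 162, 161 and 143 bases before the start.
ENO2: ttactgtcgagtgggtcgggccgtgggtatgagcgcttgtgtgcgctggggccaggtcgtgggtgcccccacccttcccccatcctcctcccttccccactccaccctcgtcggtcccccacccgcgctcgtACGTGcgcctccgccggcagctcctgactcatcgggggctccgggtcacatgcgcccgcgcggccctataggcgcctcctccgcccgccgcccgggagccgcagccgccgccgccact
LDHA: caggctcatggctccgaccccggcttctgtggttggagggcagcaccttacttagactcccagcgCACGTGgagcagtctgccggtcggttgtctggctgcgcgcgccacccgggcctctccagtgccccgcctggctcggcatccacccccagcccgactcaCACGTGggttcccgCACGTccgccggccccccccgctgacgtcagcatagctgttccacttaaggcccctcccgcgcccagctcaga
EPAS1: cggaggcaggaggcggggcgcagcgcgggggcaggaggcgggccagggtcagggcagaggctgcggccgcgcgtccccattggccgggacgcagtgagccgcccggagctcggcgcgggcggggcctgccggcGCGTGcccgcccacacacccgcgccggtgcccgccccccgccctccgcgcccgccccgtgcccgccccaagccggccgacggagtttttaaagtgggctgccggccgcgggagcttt
ADM: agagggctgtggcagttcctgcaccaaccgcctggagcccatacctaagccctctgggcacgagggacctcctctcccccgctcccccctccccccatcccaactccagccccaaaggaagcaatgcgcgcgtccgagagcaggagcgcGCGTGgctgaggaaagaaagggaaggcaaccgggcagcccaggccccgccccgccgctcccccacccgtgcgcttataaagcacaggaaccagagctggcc
ANKRD37: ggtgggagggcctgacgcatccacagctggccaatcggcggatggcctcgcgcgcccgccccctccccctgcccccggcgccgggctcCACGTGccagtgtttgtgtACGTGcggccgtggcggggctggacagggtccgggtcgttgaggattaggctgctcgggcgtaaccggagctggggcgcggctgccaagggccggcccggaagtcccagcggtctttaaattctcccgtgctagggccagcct
The LDHA and ANKRD37 stretches hold the palindrome CACGTG, in which matches on both strands overlap. The single window of EGLN3 held neither core, and the 7 windows of HK1 held GCGTG in 2 places and ACGTG in none.

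Hypoxia genes outside glycolysis passed 2-fold in 5 of 15 cases, each time with the DR-labelled library higher, and glycolytic enzymes in 3 of 17 cases, in both directions. Values are log2 fold changes of CPM plus 0.5, DR-labelled over WT-labelled, after TMM scaling, and a gene counted as higher or lower when the fold reached 2. All 40 genes had at least 10 reads over both libraries. The hypoxia genes that were higher were ADM, ANKRD37, NDRG1, EPAS1 and EGLN3, and 0 were lower. Of the 17 enzymes, HK1 and ENO2 were higher and PFKP was lower. No transporter and no regulator reached 2-fold. HK1, ENO2, PFKP and ANKRD37 are among the 22 genes with fractional counts in the table, and without all such genes 4 of 18 members were higher and 0 lower. Among all 16210 genes tested, 7.47% were higher and 4.16% lower by the same rule. Thus 7 of 40 genes (17.5%) were higher and 1 of 40 (2.50%) was lower, with 33.3% higher in the hypoxia list and 11.8% in the enzyme list.

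The median log2 fold change was 0.49 for the hypoxia genes outside glycolysis, with a range from -0.77 to 2.87. It was -0.20 for the glycolytic enzymes, with a range from -1.16 to 4.15, and 0.01 for all genes tested, with quartiles of -0.28 and 0.34. The difference between the medians of the lists was 0.69. A log2 fold change above 0 was found for 12 of 15 hypoxia genes and for 7 of 17 enzymes, against 51.1% of all genes tested. The lists overlapped: 3 enzymes, HK1, ENO2 and PFKL, lay above the median hypoxia gene, and 3 hypoxia genes, EGLN1, HIF1A and VEGFA, lay below the median enzyme. The median size of the change, whatever its direction, was 0.77 in the hypoxia list, 0.36 in the enzyme list and 0.31 over all genes tested. The lists also differ in level, since the median enzyme stood at 568 CPM and the median hypoxia gene at 42.5 CPM in the DR-labelled library. Of the 9860 genes whose mean over both libraries reached 10 CPM, 402 were higher (4.08%) and 361 lower (3.66%).

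**Figure D1:**
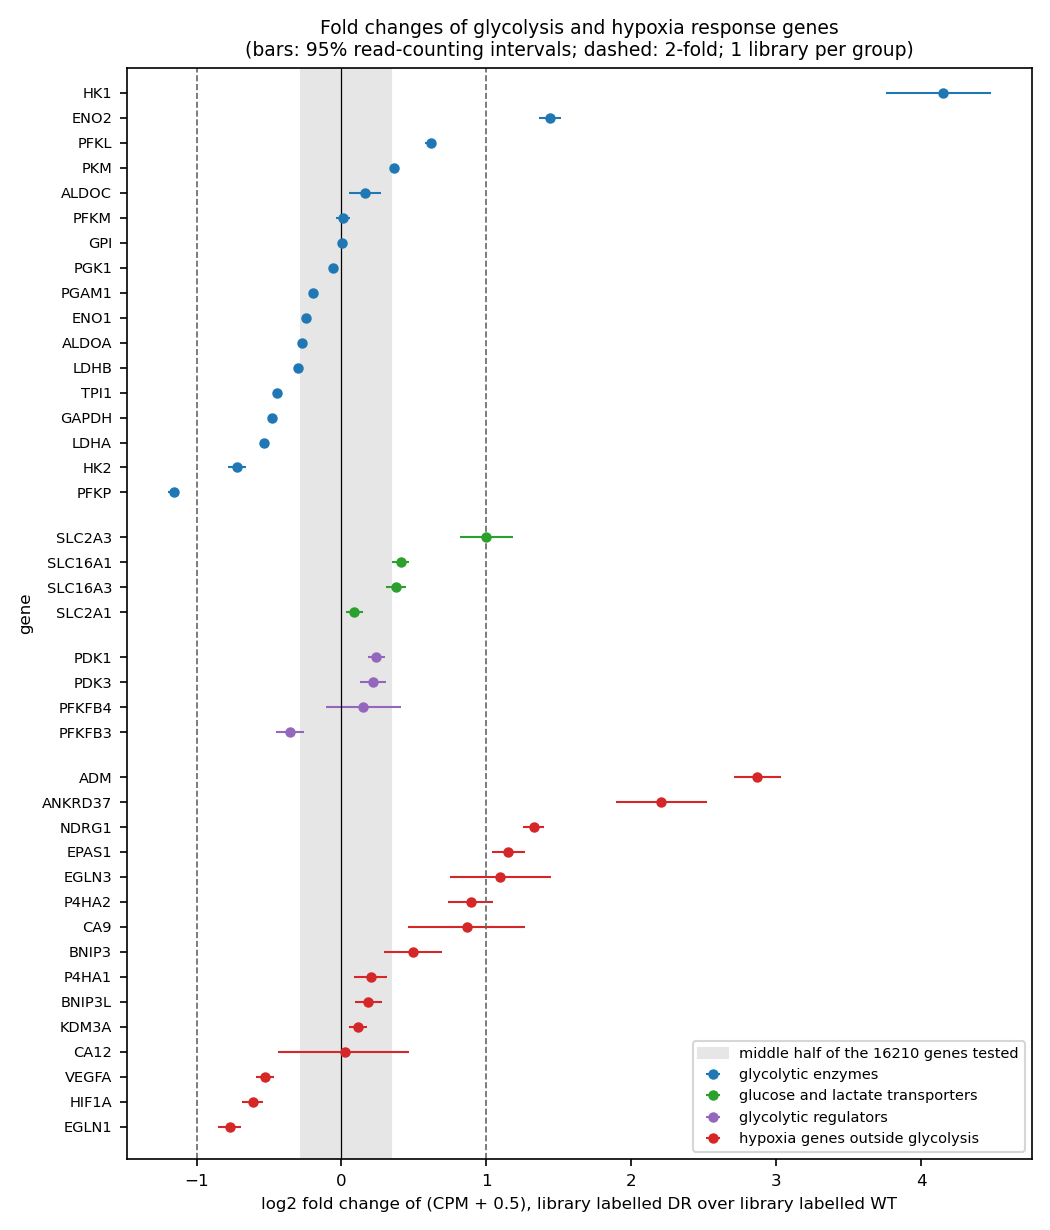
Log2 fold change (DR-labelled over WT-labelled library, of CPM plus 0.5) of each of the 40 genes, grouped and colored by list, with bars for the 95% interval of read counting only and dashed lines at 2-fold. HK1 stands far to the right at 4.15, ADM and ANKRD37 follow at 2.87 and 2.21, and PFKP is the only point left of the lower line.

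Hexokinases, which trap glucose in the cell as glucose 6-phosphate, showed the widest gap of all members. HK1 (NCBI Gene 3098), the isozyme most tissues use, had 833 reads in the DR-labelled library and 13 in the WT-labelled library, or 15.0 and 0.373 CPM. Its log2 fold change was 4.15 (95% Clopper-Pearson interval of read counting 3.76 to 4.48), and without the added 0.5 CPM the level was 40.2-fold higher (23.4 to 75.8). With 13 reads in the WT-labelled library the size depends on the added value, and it was 4.996 with 0.1 CPM and 1.90 with 5 CPM added. HK2, the isozyme that many tumors switch on, went the other way, with 4470 reads (80.5 CPM) and 4634 reads (133 CPM) and a log2 fold change of -0.72 (-0.78 to -0.66). Per base of gene length, HK2 stood 3.33-fold above HK1 in the DR-labelled library and 221-fold above it in the WT-labelled library. Among HK1, HK2, HK3 and HKDC1, HK1 made up 23.0% (21.7 to 24.3) of the length-scaled reads in the first and 0.447% (0.238 to 0.762) in the second. HK3 and HKDC1 had between 0 and 16 reads. Summed, these 4 genes stood at 95.7 and 134 CPM, a log2 fold change of -0.48, so their sum was lower where HK1 was higher.

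Phosphofructokinase, the committing step of glycolysis, had another leading isozyme in each library. PFKP (NCBI Gene 5214), the platelet type, had 8384 reads (151 CPM) in the DR-labelled and 11761 reads (337 CPM) in the WT-labelled library, a log2 fold change of -1.16 (-1.20 to -1.12). PFKL, the liver type, had 19763 reads (356 CPM) and 8081 reads (232 CPM), a log2 fold change of 0.62 (0.58 to 0.65). PFKM, the muscle type, stood at 170 and 169 CPM, a log2 fold change of 0.01. Per gene length, PFKL held 50.7% (50.2 to 51.2) of the family in the DR-labelled library and 29.3% (28.8 to 29.9) in the WT-labelled library, while PFKP held 24.7% (24.3 to 25.2) and 49.1% (48.4 to 49.7). The sum of the 3 isozymes moved little, from 738 CPM in the WT-labelled to 677 CPM in the DR-labelled library. GPI, which turns glucose 6-phosphate into fructose 6-phosphate between the hexokinase and phosphofructokinase steps, stood at 568 and 566 CPM.

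**Figure D2:**
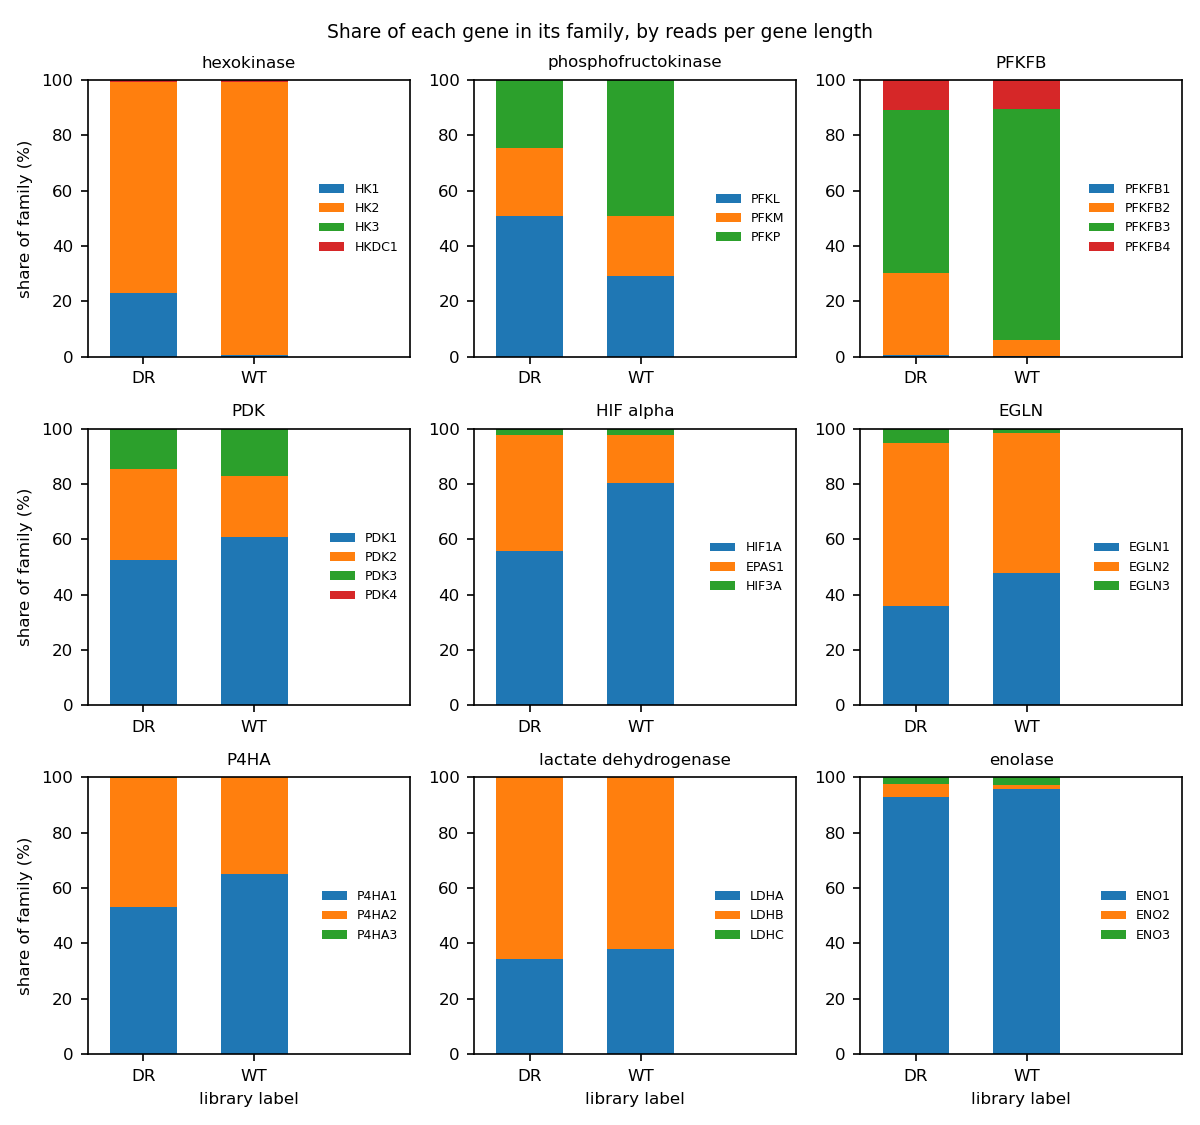
Share of each isozyme in its family (percent of reads per base of gene length) in the DR-labelled and the WT-labelled library. In phosphofructokinase the leader is PFKL in the first and PFKP in the second, HK1 takes 23.0% against 0.447% of the hexokinases shown, and EPAS1 takes 41.8% against 17.5% of the HIF alpha subunits.

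From aldolase down to lactate dehydrogenase most of the enzymes were abundant, and all enzymes but ENO2 differed by less than 2-fold. GAPDH, the dehydrogenase that yields the NADH of glycolysis, had 142249 reads (2560 CPM) and 124355 reads (3567 CPM), a log2 fold change of -0.48 (-0.49 to -0.47), and ranked 15 and 7 of the genes tested by reads per length. ALDOA, which cleaves the sugar bisphosphate, stood at 1494 and 1803 CPM (-0.27), and TPI1, which interconverts the products, at 606 and 825 CPM (-0.45). ENO1, the main enolase, stood at 2208 and 2613 CPM (-0.24). PGK1, which makes the first ATP of the pathway, differed less, at 801 and 835 CPM (-0.06), and PGAM1 stood at 367 and 420 CPM (-0.20). These enzymes have processed pseudogene copies, of which RefSeq lists 65 for GAPDH and 13 for PGAM1, and 0 of those are in the table, so reads shared with such copies are uncertain.

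PKM, the pyruvate kinase of most proliferating cells, differed by less than 2-fold. It had 152759 reads (2749 CPM) in the DR-labelled and 74482 reads (2137 CPM) in the WT-labelled library, a log2 fold change of 0.36 (0.35 to 0.38). The level of PKM per length was 0.659 of that of GAPDH in the first library and 0.367 in the second. ENO2 (NCBI Gene 2026), best known from neurons, was higher by more than 2-fold, with 7738 reads (139 CPM) against 1779 reads (51.0 CPM), a log2 fold change of 1.44 (1.37 to 1.51). ENO2 still made up only 4.60% (4.50 to 4.70) of enolase per length in the DR-labelled library and 1.47% (1.40 to 1.54) in the WT-labelled library, so ENO1 carried the family in both. ALDOC, the brain aldolase, stood at 33.9 and 30.2 CPM (0.16).

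Lactate dehydrogenase is a tetramer of LDHA and LDHB subunits, of which LDHA is the HIF-induced one. LDHA stood at 621 CPM in the DR-labelled and 900 CPM in the WT-labelled library, a log2 fold change of -0.53 (-0.56 to -0.51). LDHB stood at 711 and 877 CPM, a log2 fold change of -0.30 (-0.32 to -0.28). The stretches printed above held 5 ACGTG matches for LDHA and 3 for ANKRD37, with each palindrome counted on both strands. Whether such matches go with the fold changes was not tested. The share of LDHA per length was 34.4% (34.1 to 34.7) and 38.1% (37.7 to 38.5). The 17 enzymes together took 1.38% of the reads of the DR-labelled library (95% interval 1.377 to 1.383) and 1.53% of those of the WT-labelled library (1.527 to 1.535), and 11 of them were among the 500 genes with most reads per length in each library.

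**Figure D3:**
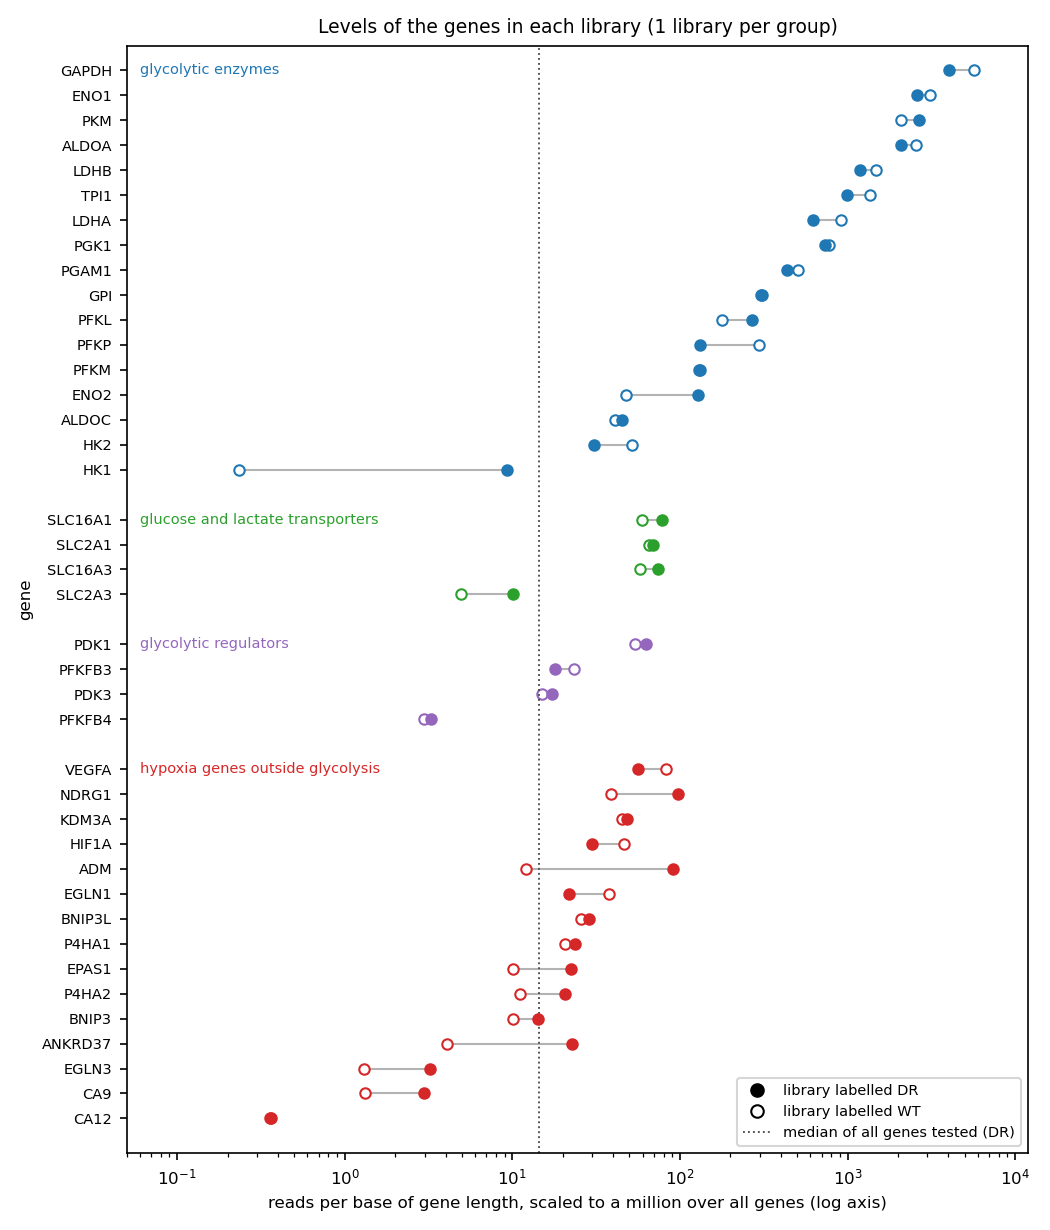
Level of each gene as reads per base of gene length, scaled to the same total in each library (log axis), with filled points for the DR-labelled and open points for the WT-labelled library. Most enzymes lie far right of the dotted median of all genes tested, HK1 lies at 9.24 in the DR-labelled and 0.233 in the WT-labelled library, and ADM at 91.5 and 12.1.

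The transporters were all somewhat higher in the DR-labelled library, and none reached 2-fold with 0.5 CPM added. SLC2A1 (GLUT1), the basal glucose importer, had 114 and 107 CPM, a log2 fold change of 0.09 (0.03 to 0.15). SLC2A3 (GLUT3), a high-affinity importer, had 983 reads (17.7 CPM) and 300 reads (8.61 CPM), and its log2 fold change of 0.999 (0.82 to 1.18) was just short of the threshold. Without the added 0.5 CPM, SLC2A3 was 2.06-fold higher (1.80 to 2.35). The lactate carriers SLC16A1 (MCT1) and SLC16A3 (MCT4) had 120 against 90.3 CPM (0.41) and 90.5 against 69.5 CPM (0.38). SLC16A7 (MCT2), a relative outside the 40 genes, was lower, with 599 reads (10.8 CPM) against 1392 reads (39.9 CPM), a log2 fold change of -1.84 (-1.98 to -1.71). Per length it was 1.29% and 6.02% of the 4 carriers measured, so SLC16A1 and SLC16A3 made up most of the family in both libraries.

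The regulators of glycolytic flux differed little as single genes. PDK1, a kinase that shuts pyruvate dehydrogenase and is a known HIF target, stood at 118 and 99.5 CPM (0.24), and PDK3, another of these kinases, at 51.0 and 43.9 CPM (0.22). PFKFB3, which makes the activator fructose 2,6-bisphosphate, stood at 34.0 and 43.7 CPM (-0.36), and PFKFB4 at 5.18 and 4.62 CPM, with an interval of -0.11 to 0.41 that includes 0. Larger differences lay in relatives that are not among the 40. PFKFB2, the heart-type isozyme, had 1462 reads (26.3 CPM) against 159 reads (4.56 CPM), a log2 fold change of 2.41 (2.19 to 2.63). It took 29.5% (28.1 to 30.9) of the family per length in the DR-labelled library and 5.61% (4.78 to 6.54) in the WT-labelled library, while PFKFB3 took 59.1% and 83.4%. PDK2 had 41.1 against 19.7 CPM, a log2 fold change of 1.04 (0.92 to 1.16).

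The HIF alpha genes HIF1A and EPAS1 went opposite ways. HIF1A, the gene of HIF-1alpha, had 3048 reads (54.9 CPM) in the DR-labelled and 2933 reads (84.1 CPM) in the WT-labelled library, a log2 fold change of -0.61 (-0.69 to -0.54). EPAS1 (NCBI Gene 2034) had 2902 reads (52.2 CPM) and 810 reads (23.2 CPM), a log2 fold change of 1.15 (1.04 to 1.26). HIF1A was 80.4% of the HIF alpha reads per length in the WT-labelled library and 55.8% in the DR-labelled library, and EPAS1 was 17.5% and 41.8%. The sum of HIF1A, EPAS1 and HIF3A was nearly equal, at 110 CPM in each library. HIF-alpha abundance is set mainly by protein breakdown, which RNA counts do not show.

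The prolyl hydroxylases, which mark HIF alpha for destruction, also differed in direction. EGLN1 (PHD2), known as the main HIF hydroxylase, stood at 42.5 and 73.0 CPM, a log2 fold change of -0.77 (-0.85 to -0.69). EGLN3 (PHD3, NCBI Gene 112399), known as strongly HIF-induced, had 219 reads (3.94 CPM) and 55 reads (1.58 CPM), a log2 fold change of 1.10 with an interval of 0.75 to 1.44 that reaches below 2-fold. EGLN2 (PHD1), a relative outside the 40 genes, stood at 34.8 and 38.6 CPM (-0.15). Per length EGLN2 led the family in both libraries, with 58.8% and 50.7%, ahead of EGLN1 with 35.9% and 47.7%. By reads the order was reversed, with EGLN1 at 52.4% and 64.5% and EGLN2 at 42.8% and 34.1%, so the lead depends on the gene lengths. EGLN3 was 5.34% (4.67 to 6.07) of the hydroxylases per length in the DR-labelled library and 1.66% (1.25 to 2.15) in the WT-labelled library. Of the 12 other oxygen-sensing genes, 1 was higher (8.33%, against 7.47% of all genes tested) and 0 lower by 2-fold. The median of these 12 genes was 0.03. The higher one was ARNT2, a HIF beta subunit, with 270 reads and 1 read, a ratio of 169 with a counting interval of 30.1 to 6716. ARNT, the usual beta subunit, stood at -0.61, VHL, which recognises hydroxylated HIF alpha, at 0.10, and CUL2, the scaffold of the VHL ligase, at -0.81. The 11 genes of this list within 2-fold ranged from CUL2 to CITED2, which competes with HIF for its coactivators, at 0.90.

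Of the HIF targets outside glycolysis, ADM and ANKRD37 had the largest log2 fold changes of the 40 genes after HK1. ADM (NCBI Gene 133) had 3656 reads (65.8 CPM) in the DR-labelled and 299 reads (8.58 CPM) in the WT-labelled library, a log2 fold change of 2.87 (2.71 to 3.03). ANKRD37 (NCBI Gene 353322) had 542 reads (9.76 CPM) and 60 reads (1.72 CPM), a log2 fold change of 2.21 (1.89 to 2.52), or 1.13 with 5 CPM added. NDRG1 (NCBI Gene 10397), a stress-induced gene linked to differentiation, had 7534 reads (136 CPM) and 1874 reads (53.8 CPM), a log2 fold change of 1.33 (1.25 to 1.40). The intervals of all 3 genes lay above 2-fold in the DR-labelled library.

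Other classical targets did not reach 2-fold with 0.5 CPM added. VEGFA, the angiogenic growth factor, was at the lower end, with 4595 reads (82.7 CPM) against 4163 reads (119 CPM), a log2 fold change of -0.53 (-0.59 to -0.47). CA9, a membrane carbonic anhydrase used as a hypoxia marker, had 116 reads (2.09 CPM) and 32 reads (0.918 CPM), a log2 fold change of 0.87 (0.46 to 1.26), and CA12 had 36 and 22 reads, a log2 fold change of 0.02 (-0.44 to 0.47). Without the added 0.5 CPM, CA9 was 2.27-fold higher (1.53 to 3.48). Both carbonic anhydrases stood below the median level of all genes tested, and a 2-fold difference of CA9 was not resolved at this depth. The mitophagy receptors BNIP3 and BNIP3L stood at 10.7 against 7.43 CPM (0.49) and 45.3 against 39.8 CPM (0.18). RefSeq lists 46 BNIP3 pseudogenes, so the BNIP3 reads are uncertain. The collagen prolyl hydroxylase P4HA2 stood at 22.6 and 12.0 CPM (0.89) and its relative P4HA1 at 30.3 and 26.3 CPM (0.20), which put P4HA2 at 46.6% and 34.8% of the family per length. KDM3A, a histone demethylase, stood at 101 and 93.1 CPM (0.11).

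A further list of hypoxia-induced genes lay closer to the median of all genes tested. Against 7.47% higher and 4.16% lower of all genes tested, 3 (10%) of 30 other hypoxia-induced genes were higher and 1 (3.33%) lower. Their median was 0.04. Those higher were PLOD2, a collagen lysyl hydroxylase (1144 and 201 reads, 1.75), LOX, a collagen crosslinking oxidase (100 and 20 reads, 1.10), and AK4, a mitochondrial adenylate kinase (887 and 254 reads, 1.08). RORA, a nuclear receptor, was lower (871 and 1256 reads, -1.18). The members of this list include DDIT4 at -0.11, ERO1A at -0.28 and BHLHE40 at -0.01, each within 2-fold. The table also annotates genes with hypoxia terms. The sets counted here leave out the glycolytic enzymes, transporters, regulators and hypoxia genes outside glycolysis, but not the genes of the other lists. Of 124 genes annotated with response to hypoxia, 11 were higher (8.87%) and 10 lower (8.06%), with a median of 0.04. PLOD2 and ARNT2, already counted in the lists above, are among those 11. Of 43 annotated with cellular response to hypoxia, 7 were higher (16.3%) and 0 lower, with a median of -0.05. This set also shares genes with the list of 30, such as HMOX1, STC2 and FAM162A. The 15 genes and the list of 30 were chosen by name with earlier results known, so the contrast of the lists depends on which genes were put in each.

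Pathways that branch from glycolysis had genes past 2-fold in either direction at shares around the 11.6% of all genes tested. The shares were 11.1% for the pentose phosphate list, 8.33% for pyruvate entry and the citrate cycle, and 16.7% for the side branches. Of 9 pentose phosphate genes, 1 was higher, TKTL1 (120 and 22 reads, 1.23), and the median was 0.02, with TKT, the main transketolase, at 0.02. Of 24 genes of pyruvate entry and the citrate cycle, 0 were higher and 2 lower, with a median of -0.16 and 18 of 24 below 0. The lower ones were PC, pyruvate carboxylase (526 and 1041 reads, -1.61), and DLST, a subunit of 2-oxoglutarate dehydrogenase (3574 and 4654 reads, -1.05). Of 12 side branch genes tested, 2 were higher, the gluconeogenic phosphatase FBP1 (203 and 24 reads, 1.81) and the glycerol phosphate dehydrogenase GPD1 (994 and 275 reads, 1.13), and the median was -0.17. Of 19 other isozymes of the families above, 12 had enough reads, and 3 were higher (PFKFB2, PDK2 and SLC16A8) and 1 lower (SLC16A7), with a median of 0.07. Past 2-fold in either direction were thus 33.3% of the isozymes tested, against 11.6% of all genes tested. The 8 isozymes within 2-fold ranged from PGAM2 at -0.35 to SLC2A4 at 0.46, with ENO3 at -0.25. SLC16A8 (MCT3), a lactate carrier, had 74 and 13 reads, a log2 fold change of 1.07 (0.61 to 1.46).

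**Figure D4:**
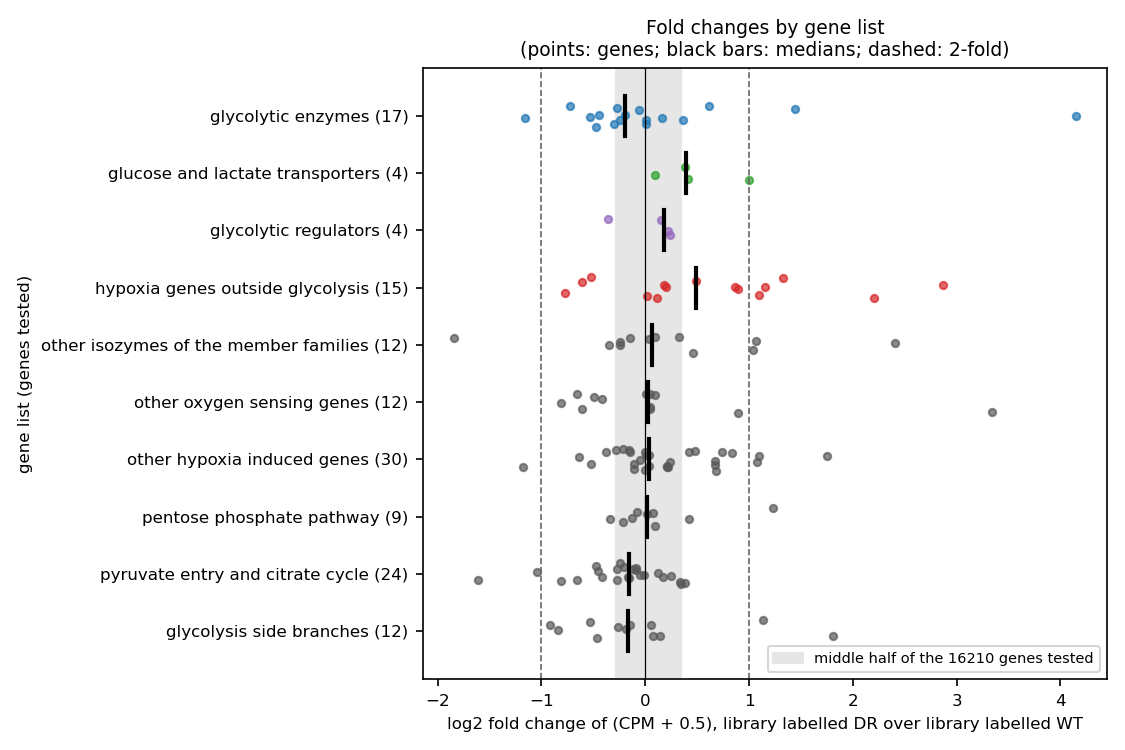
Log2 fold change of every gene tested in each list (points), with list medians (black bars), 2-fold lines (dashed) and the quartile range of all genes tested (grey band). The median of the hypoxia genes outside glycolysis, 0.49, lies right of the grey band, and the medians of the enzymes (-0.20) and of the other hypoxia-induced genes (0.04) lie inside it.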

How the data were processed

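RNA of 1 library labelled DR and 1 labelled WT was sequenced. The authors deposited 1 table of estimated counts per gene (expected counts, not scaled for library size), with gene lengths, annotation and columns of their own comparison (a log2 ratio with p and q values), which were not used. The submitters' processing notes name Bowtie 0.12.2 and hg19. The counting tool and annotation are not given in the sources used here, and how reads in near-identical copies were assigned cannot be stated. Counts were fractional for 9108 of 18267 genes with counts and for 22 of the 40 members, and were rounded. The table holds no count for 663 genes.

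Library sizes were scaled with TMM (edgeR 4.0.16, R 4.3.3; factors 1.01 and 0.988). Genes with under 10 reads over both libraries (2057) were left out of the tested set of 16210. A pseudocount of 0.5 CPM was added, which understates the change of low genes. For each gene the 95% Clopper-Pearson interval was taken of the DR-labelled library's part of its reads and turned into a fold, and family shares were treated likewise. Reads carry no molecular identifiers here, so intervals and floors cover counting error only. The quasi-likelihood test of edgeR could not be fitted with 1 library per group, so genes were called by a fold of 2. The procedure was tested on simulated reads that varied by counting error only. That test cannot show how often replicate libraries would differ by 2-fold. Python 3.11.15 with NumPy 2.4.6, SciPy 1.17.1 and pandas 2.3.3 was used, and DESeq2 1.42.0 gave alternative size factors. Reads were divided by gene length and scaled to the same total in each library to compare genes. All members are named, and of the other pathway lists those past 2-fold at a mean of at least 1 CPM and relatives or complex partners of members, singly or by range. DDIT4, ERO1A, BHLHE40, TKT and JCHAIN were named after their values were seen. Lists by Gene Ontology term were taken from the table's annotation after seeing the data and only counted. 2 genes of the lists are not reported here. The members and lists were chosen with earlier results of these data known. Promoters came from RefSeq (GRCh38.p14) and were matched by gene ID.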

Additional observations from a re-analysis of the deposited data

How the results depend on the processing

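No paired analysis was possible because each group has 1 library. With 1 library per group none could be left out. Under DESeq2 size factors, no filter and a filter of 50 reads, and TMM on the filtered genes, a choice added after seeing the data, all 40 members kept their call or lack of one and moved by less than their counting interval. GPI alone changed sign, within its interval. Library totals put SLC2A3 past 2-fold (1.03) and the enzyme median at -0.16. They also moved 10 enzymes out of their counting intervals, without a change of call. These were GPI, ALDOA, TPI1, GAPDH, PGK1, PGAM1, ENO1, PKM, LDHA and LDHB, with GAPDH at -0.44 and PKM at 0.40. The narrow intervals of abundant genes do not cover the choice of scaling. With 0.1 CPM added, SLC2A3 (1.03) and CA9 (1.10) passed 2-fold, and HK1 was at 4.996. With 5 CPM added, EGLN3 no longer passed 2-fold (0.44), HK1 was at 1.90, ANKRD37 at 1.13 and CA9 at 0.26, the hypoxia median was 0.26, the difference of medians 0.45, calls over all genes 423 higher and 333 lower, and those of the other lists 2 and 2 instead of 10 and 4. At 1.5-fold, 11 members were higher and 4 lower, 2 enzymes and 2 hypoxia genes were lower, and calls were 2444 and 1808 over all genes and 16 and 12 in the other lists. Leaving out genes with fractional counts left 18 members, of which 4 were higher and 0 lower, with 0 enzymes higher and 0 lower, a hypoxia median of 0.87, a difference of 1.05, 709 and 358 calls over all genes, and 6 and 2 in the other lists. By reads instead of reads per length, 2 families rather than 1 had another leader in each library, as LDHB led in the DR-labelled and LDHA in the WT-labelled library. EGLN1 instead of EGLN2 then led the prolyl hydroxylases in both libraries. The enzymes among the 500 highest genes were 11 in each library by CPM as well. Depth limits the genes with few reads, such as CA12 (36 and 22), CA9 (116 and 32), HK1 (833 and 13) and EGLN3 (219 and 55), whose counting intervals are wide.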
